A study of Mus musculus with 76 samples.

Results

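The genes described here encode the subunits of the mitochondrial respiratory chain and of the ATP synthase, with 4 assembly factors of complex I. They were taken by name from the probe annotation, as every gene whose symbol begins with Nduf, Uqcr, Cox4 to Cox8 or Atp5, or is Sdha, Sdhb, Sdhc or Sdhd. This gave 82 of the 11807 genes that have a probe set with 1 gene symbol, each read from its probe set of highest mean. By complex there were 6 core subunits, 28 accessory subunits and 4 assembly factors of complex I, 4 genes of complex II, 7 of complex III, 16 of complex IV and 17 of complex V. Ndufs5-ps, one of the accessory entries, is annotated as a pseudogene of Ndufs5, so its probe set cannot be assigned to either copy with certainty.

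The respiratory chain lies in the inner mitochondrial membrane. Complex I takes electrons from NADH and complex II from succinate, complex III passes them on to cytochrome c, and complex IV (cytochrome c oxidase) hands them to oxygen. The proton gradient built on the way drives complex V, the ATP synthase. In the brain most ATP for ion pumping and synaptic transmission comes from this chain. Its subunits are encoded by both genomes, and the genes covered here are all nuclear.

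Hippocampi of 76 female mice were each hybridised to 1 array. The rTg4510 mice (Tg4510 in the labels) carry 2 transgenes, a tetracycline-responsive human tau with a proline-to-leucine mutation (TRE-htau) and the transactivator tTA under the CaMKIIα promoter, which is active in excitatory forebrain neurons. The tTA mice carry the transactivator alone and the DN (double negative) mice neither transgene of the same cross. All are females. Mice carrying htau alone are not analysed here, so rTg4510 against tTA asks what the tau transgene adds to the transactivator. There were 10 rTg4510 mice of 1.9 months and 10 mice of each genotype at 4.7 months. At 6.1 months there were 10 tTA, 10 DN and 6 rTg4510 mice, and at 10.7 months 5 tTA and 5 DN mice. These ages name groups of mice of similar age. The 4.7-month mice were 4.6 to 4.9 months old in DN, 4.6 to 5.0 in tTA and 4.5 to 5.0 in rTg4510. The 6.1-month mice were 6.1 to 6.4 months old in DN, 6.0 to 6.2 in tTA and 5.9 to 6.3 in rTg4510. Their mean ages were 6.27, 6.11 and 6.15 months. The youngest group spanned 1.7 to 2.0 months and the oldest groups 10.7 to 10.8 months. With no controls at 1.9 months and no rTg4510 mice at 10.7 months, rTg4510 could be compared with tTA and DN at 4.7 and 6.1 months only, and tTA with DN also at 10.7 months.

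Values are log2 probe set signals, and a difference is a difference of group means on that scale with its standard error. All differences were tested with limma over 22626 probe sets, and a gene is called higher or lower where the p-value adjusted by Benjamini-Hochberg is under 0.05. Most of the chain was bright on this array. The mean signal was above 9 for 69 of the 82 genes and in the highest 10 percent of all genes for 68, although signals of different probe sets do not rank amounts of mRNA. Below 6 lay 7 genes, namely Sdhd and the complex IV isoforms Cox4i2, Cox6a2, Cox6b2, Cox7a1, Cox8b and Cox8c, which are known from lung, muscle, heart or testis. The standard deviation within groups was under 0.1 for 68 of the 82 genes, so differences of signal well below 1.2-fold could be resolved for most of them. It was widest for Cox8b, at 0.97, and Cox6b2, at 0.57.

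Most respiratory chain genes differed little between rTg4510 and tTA mice. The mean signal over all 82 genes was 9.79 ± 0.04 (SD, n = 10) in tTA and 9.80 ± 0.04 (n = 10) in rTg4510 mice of 4.7 months. At 6.1 months it was 9.81 ± 0.06 (n = 10) and 9.83 ± 0.05 (n = 6). Single mice ranged from 9.72 to 9.91 at 6.1 months in tTA and from 9.77 to 9.90 in rTg4510, so the ranges of the genotypes overlapped. Over the 82 genes the median difference was 0.00 at 4.7 months and 0.01 at 6.1 months, against -0.01 and -0.02 over all genes. The median size of a difference regardless of sign was 0.028 and 0.030, against 0.058 and 0.076 over all genes. These sizes are not matched for signal, whose median was 10.29 over the 82 genes and 5.87 over all genes.

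**Figure D1:**
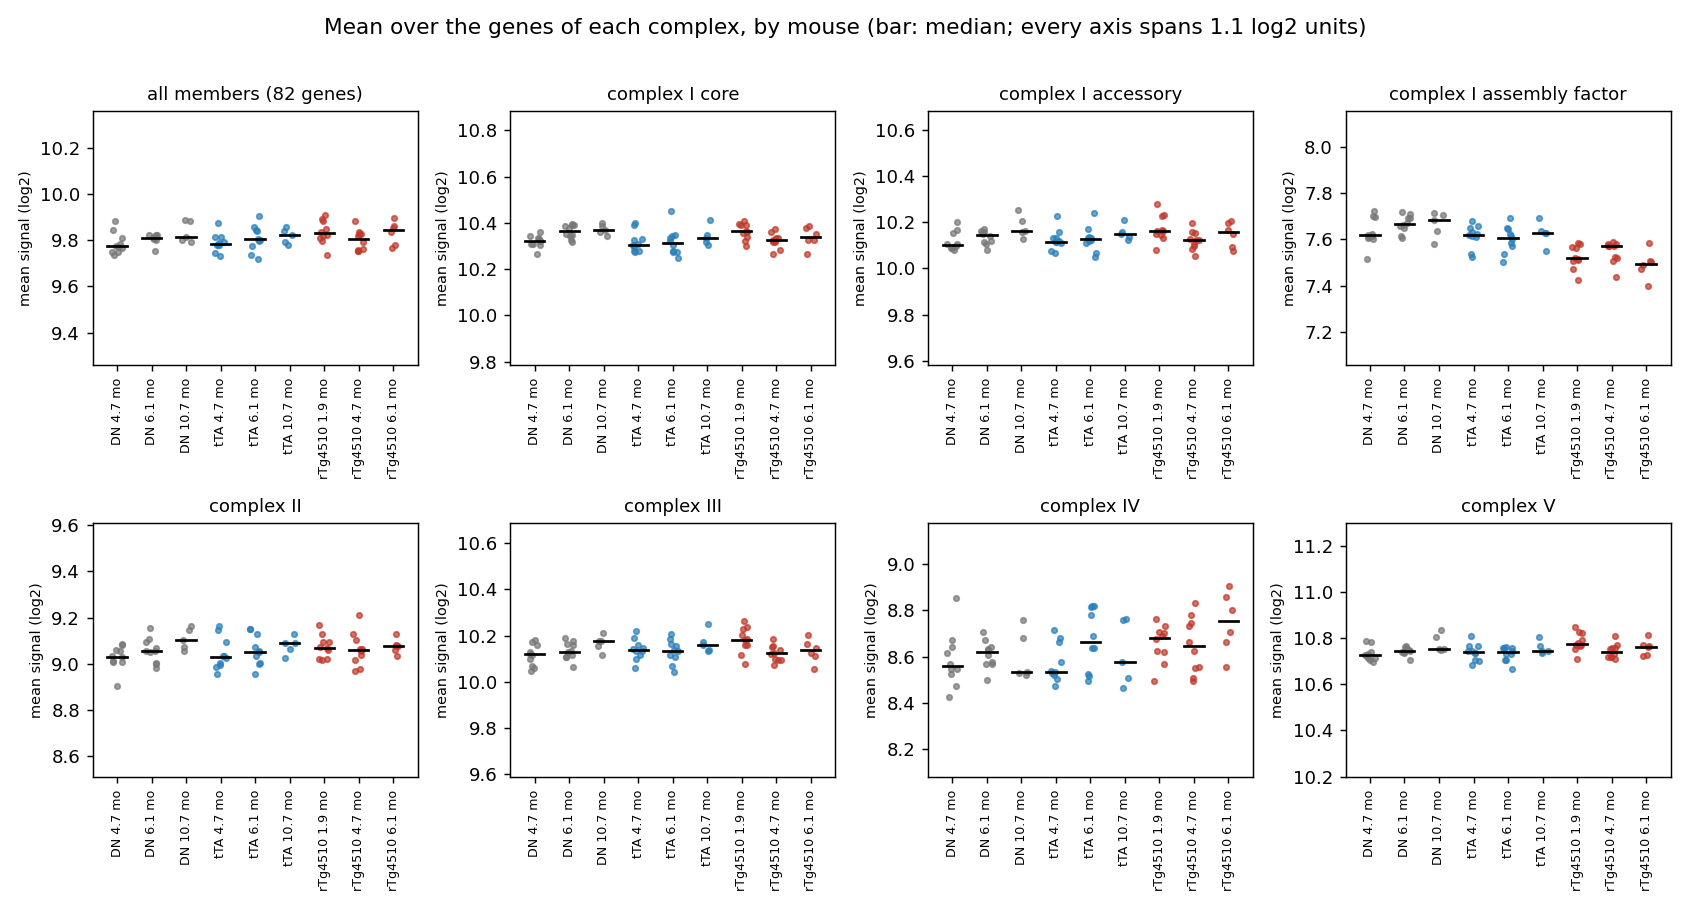
Mean log2 signal over all 82 genes and over the genes of each complex (vertical axes, each spanning 1.1 log2 units) in every mouse of the 9 groups, grey for DN, blue for tTA and red for rTg4510, with the group median as a bar. For the 4 complex I assembly factors the means were 7.55 and 7.49 in rTg4510 at 4.7 and 6.1 months against 7.61 and 7.60 in tTA. The rTg4510 mice of 6.1 months (7.40 to 7.58) overlap the tTA mice of that age (7.50 to 7.69). They do not reach the DN mice of that age (from 7.60, mean 7.67), and 7.14% of all single genes separated these groups. The rTg4510 mice of 1.9 months, which have no controls of their age, ranged from 7.42 to 7.59.

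At 4.7 months 3 of the 82 genes were called between rTg4510 and tTA, where the same test called 9.1% of all genes and 11.9% of the genes with the highest 10 percent of signals. Cox6b2 was higher, and Ndufb9 and Cox8a were lower. At 6.1 months 2 were called, where 14.9% of all genes and 22.4% of the brightest were. Cox6a2 was higher and Ndufaf1 lower. Genes with an unadjusted p under 0.05 numbered 8 and 4 of the 82, against 2637 and 3146 of all 11807. No respiratory chain gene separated the genotypes without overlap at 4.7 or 6.1 months, and 0.11% and 3.29% of all genes did.

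The intervals of the differences limit how much the signals of the other genes can have moved. They bound the array signal and not the amount of mRNA itself. For 78 of the 82 genes at 4.7 months the whole 95% interval of the difference lay within 1.2-fold, and so it did for 77 at 6.1 months. Over all genes 77.8% and 66.1% met that bound, and 90.8% and 81.9% of the brightest. The exceptions were Cox6a2, Cox6b2, Cox7a1 and Cox8b at both ages and Ndufaf1 at 6.1 months. By the probe set used, all genes of complexes II, III and V (4, 7 and 17) stayed inside the bound at both ages. So did all 34 structural genes of complex I. A further, dim probe set of Ndufa12, given below, was called lower at 4.7 months.

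**Figure D2:**
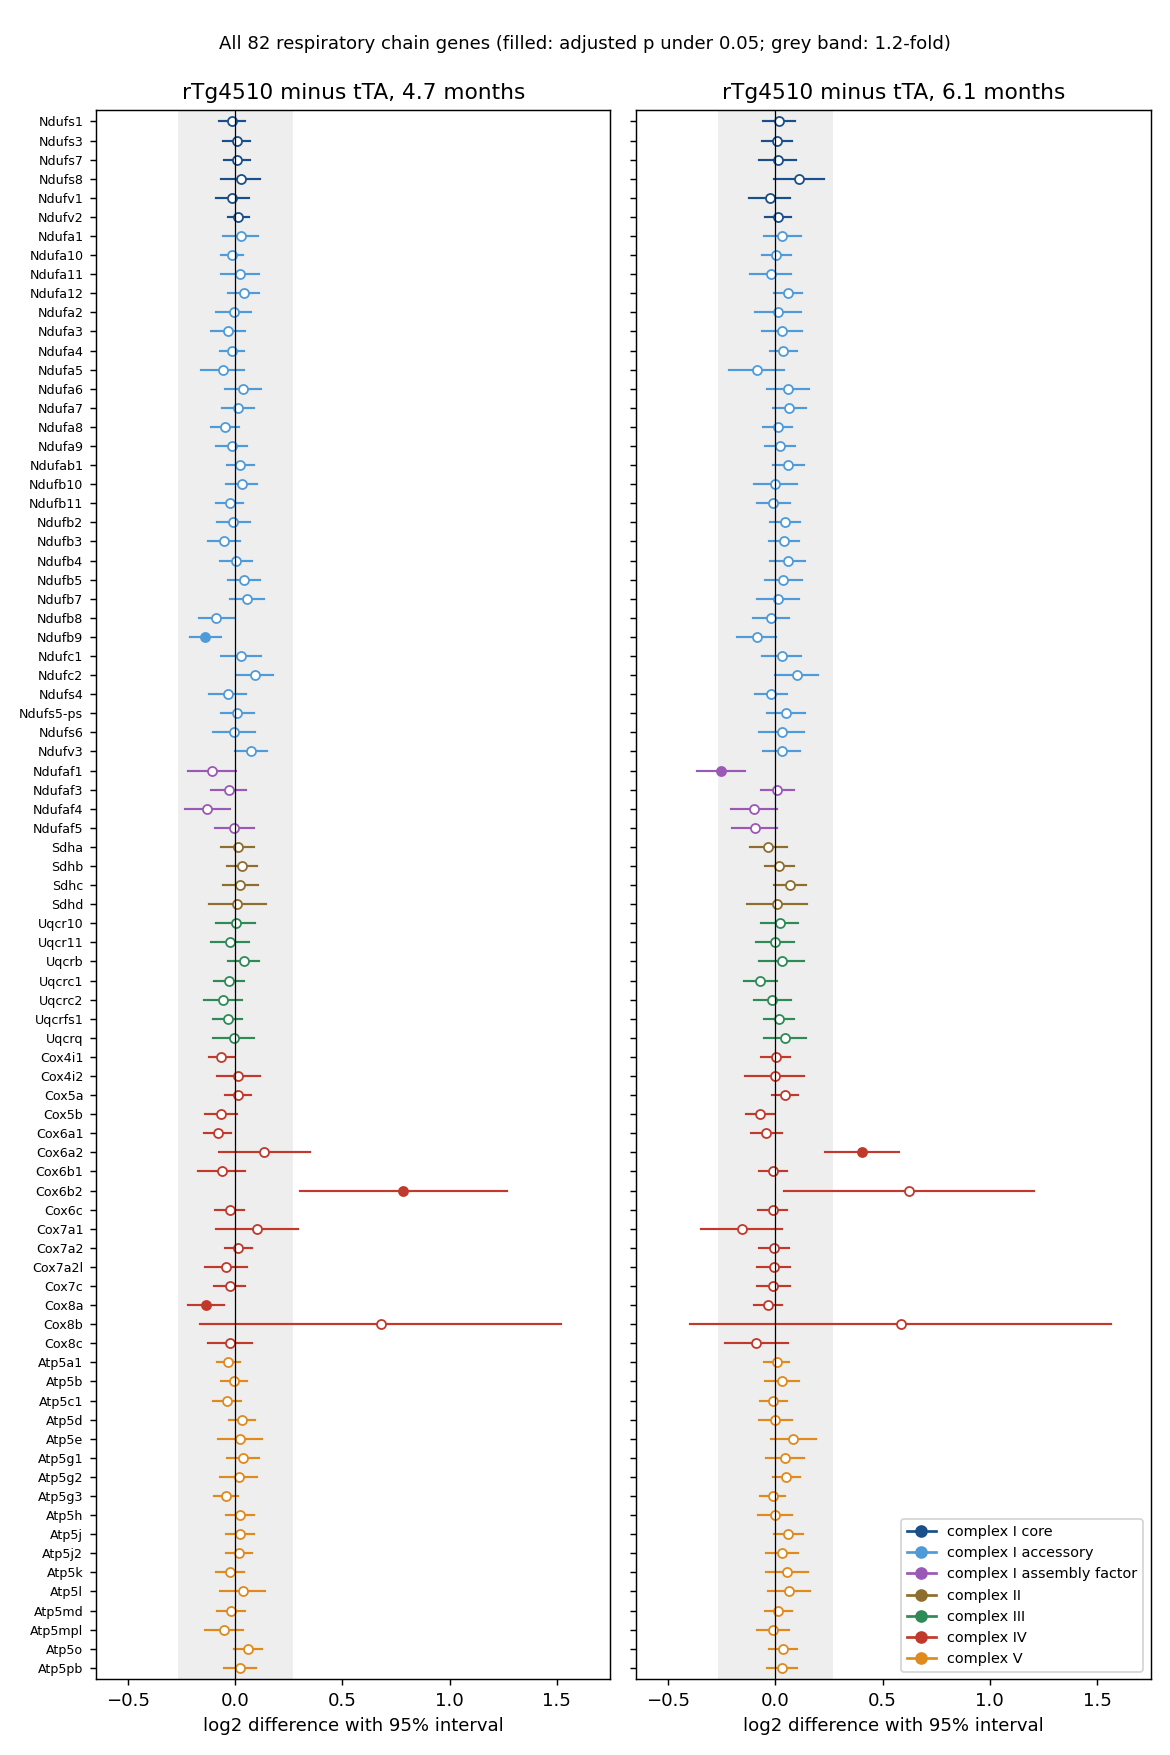
Difference in log2 signal, rTg4510 minus tTA (horizontal axes), with its 95% interval for each of the 82 genes at 4.7 months (left, 10 against 10 mice) and 6.1 months (right, 6 against 10 mice), coloured by complex. Filled points passed the test, 3 at 4.7 months and 2 at 6.1 months, and 78 and 77 intervals lie inside the grey band of 1.2-fold.

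Sequences upstream of 5 genes are shown as examples from the pattern described next. Of the genes called between rTg4510 and tTA, Cox6a2 and Ndufb9 had no promoter among the sequences used, and Cox8a is not shown. Ndufaf1 is an assembly factor called lower in rTg4510 than in tTA and DN at 6.1 months, Ndufaf4 one called lower than in DN but not than in tTA, Cox6b2 is an isoform called higher than in tTA at 4.7 months and than in DN at both ages, and Cox6a1 and Cox6b1 encode the common forms of subunits VIa and VIb. Each line gives the 250 bases before the transcription start, 5′ to 3′ on the strand of the gene, from the RefSeq promoters of build GRCm38.p6. Capitals mark matches, on either strand, to the motif of NRF1 (GCGCA, any base, then GCGC) or of GABPA (CCGGAAG).
Ndufaf1, chr2:119662835-119663084, minus strand: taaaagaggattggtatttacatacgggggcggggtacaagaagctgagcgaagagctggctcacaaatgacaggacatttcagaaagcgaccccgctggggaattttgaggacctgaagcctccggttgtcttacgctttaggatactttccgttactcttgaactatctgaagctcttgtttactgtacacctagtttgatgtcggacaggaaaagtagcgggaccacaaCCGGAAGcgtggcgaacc
Ndufaf4, chr4:24897833-24898082, plus strand: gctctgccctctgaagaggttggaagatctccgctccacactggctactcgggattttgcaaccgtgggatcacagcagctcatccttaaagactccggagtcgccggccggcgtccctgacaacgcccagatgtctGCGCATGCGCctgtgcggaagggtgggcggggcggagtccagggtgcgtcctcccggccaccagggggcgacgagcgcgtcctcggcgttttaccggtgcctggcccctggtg
Cox6a1, chr5:115348959-115349208, minus strand: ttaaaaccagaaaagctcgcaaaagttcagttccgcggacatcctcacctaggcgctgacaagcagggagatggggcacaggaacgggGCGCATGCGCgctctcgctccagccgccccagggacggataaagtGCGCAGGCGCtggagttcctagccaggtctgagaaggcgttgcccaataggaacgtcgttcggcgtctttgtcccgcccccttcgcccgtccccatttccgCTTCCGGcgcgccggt
Cox6b1, chr7:30626115-30626364, minus strand: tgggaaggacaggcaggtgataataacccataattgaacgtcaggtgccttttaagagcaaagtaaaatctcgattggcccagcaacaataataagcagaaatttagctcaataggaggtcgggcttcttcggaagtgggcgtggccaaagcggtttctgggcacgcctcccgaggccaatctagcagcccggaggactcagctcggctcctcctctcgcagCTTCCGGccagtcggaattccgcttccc
Cox6b2, chr7:4753095-4753344, minus strand: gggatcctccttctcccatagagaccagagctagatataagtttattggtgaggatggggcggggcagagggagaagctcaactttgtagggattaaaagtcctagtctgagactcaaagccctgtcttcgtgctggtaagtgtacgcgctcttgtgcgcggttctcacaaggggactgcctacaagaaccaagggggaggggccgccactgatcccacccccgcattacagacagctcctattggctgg
The stretch before Cox6a1 held 3 matches and 26 CpG dinucleotides, and that before Cox6b1 held 1 match and 14. The stretch before Cox6b2 held no match and 8 CpG dinucleotides. That before Ndufaf1 held 1 match and 13, and that before Ndufaf4 held 1 match and 23. Promoters of 300 bases, described below, had a median of 20 CpG dinucleotides for respiratory chain genes and 7 over all promoters. NRF1 and GABPA are known activators of nuclear genes of the respiratory chain. A promoter of 300 bases (250 before to 50 after the start) was in the table for 67 of the 82 genes. The NRF1 motif was in 26.9% of those, against 5.19% of all 27025 genes with a promoter and 9.14% of the 9425 of them on the array. The GABPA motif was in 23.9%, against 9.93% and 16.3%. AAGATGGCG, bound by YY1, was in 10.4%, against 1.64% and 2.81%. TGACGTCA, bound by CREB, was in 5.97%, against 2.03% and 2.96%, and TCAAGGTCA, bound by the ERR receptors, in 2.99%, against 0.466% and 0.361%. Both strands were searched, TGACGTCA reads the same on both. A match describes these letters and is not evidence of binding.

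Few structural genes of complex I differed. The core subunits, which bind the flavin and iron-sulfur clusters, had differences from -0.01 to 0.03 at 4.7 months and from -0.03 to 0.11 at 6.1 months, and none of the 6 was called. Ndufv2, the brightest of them, differed by 0.01 ± 0.02 at 4.7 months and 0.01 ± 0.03 at 6.1 months. Ndufs8 had the widest difference, 0.03 ± 0.04 and then 0.11 ± 0.06 (adjusted p = 0.232). Of the 28 accessory subunits 14 lay below 0 at 4.7 months and 7 at 6.1 months, with medians of 0.00 and 0.03. Ndufa4, the brightest of these and now also counted with complex IV, differed by -0.02 ± 0.03 and 0.04 ± 0.03. Ndufc2, a subunit of the membrane arm, gave 0.09 ± 0.04 and 0.10 ± 0.05 against tTA, and Ndufb8 gave -0.09 ± 0.04 at 4.7 months, without passing the test.

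Ndufb9, an accessory subunit of the membrane arm, was the 1 structural gene of complex I called by its probe set of highest mean. Its lowest, median and highest signals were 10.95, 11.04 and 11.26 in the 10 tTA mice of 4.7 months and 10.80, 10.91 and 10.96 in the 10 rTg4510 mice. In 8 of the 10 rTg4510 mice it was below every tTA mouse. The difference was -0.14 ± 0.03, or 0.908-fold (adjusted p = 0.0105 by limma). At 6.1 months it was -0.09 ± 0.05 (adjusted p = 0.237), with signals from 10.86 to 11.02 in rTg4510 and from 10.97 to 11.32 in tTA, and 4 of 6 rTg4510 mice below every tTA mouse. Against DN it was -0.09 ± 0.03 at 4.7 months (adjusted p = 0.0692) and -0.07 ± 0.05 at 6.1 months (adjusted p = 0.377). The difference between the ages was not called.

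The assembly factors of complex I are not part of the finished enzyme but build it. Ndufaf1 acts on an intermediate of the membrane arm, and Ndufaf3 and Ndufaf4 act together early in assembly. Ndufaf5 is a methyltransferase-like protein that modifies a subunit during assembly. All 4 lay below tTA at 4.7 months, with differences from -0.13 to -0.01, and 3 of 4 did at 6.1 months, from -0.26 to 0.01.

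Ndufaf1 was called at 6.1 months. Its lowest, median and highest signals were 6.79, 6.96 and 7.08 in tTA, 6.76, 6.90 and 7.04 in DN and 6.49, 6.72 and 6.92 in rTg4510. In 5 of the 6 rTg4510 mice it was below every tTA mouse and below every DN mouse. It fell by 0.26 ± 0.05 on the log2 scale against tTA, to 0.838-fold (adjusted p = 0.00184), and by 0.22 ± 0.05 against DN (adjusted p = 0.00545). At 4.7 months the difference was -0.11 ± 0.06 against tTA (adjusted p = 0.274) and -0.11 ± 0.06 against DN (adjusted p = 0.21). The rTg4510 mice of 1.9 months, which have no controls of their age, had signals of 6.64, 6.78 and 6.92. Over the 3 ages of rTg4510 no change of Ndufaf1 was called.

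Ndufaf4 was called against DN at both ages, where 15.8% of all genes (19.7% of the brightest) were called at 4.7 months and 19.9% (26.7% of the brightest) at 6.1 months. At 4.7 months its lowest, median and highest signals were 7.47, 7.77 and 7.94 in DN, 7.48, 7.72 and 7.90 in tTA and 7.50, 7.55 and 7.72 in rTg4510. At 6.1 months they were 7.62, 7.78 and 7.94 in DN, 7.54, 7.65 and 7.77 in tTA and 7.35, 7.59 and 7.68 in rTg4510. The rTg4510 mice lay at the low end of the DN range, and 3 of 6 were below every DN mouse at 6.1 months. The difference from DN was -0.18 ± 0.05 at 4.7 months (adjusted p = 0.0166) and -0.23 ± 0.05 at 6.1 months (adjusted p = 0.00197). Its second probe set gave -0.22 ± 0.06 (adjusted p = 0.0119) and -0.22 ± 0.05 (adjusted p = 0.00378). The difference from tTA was -0.13 ± 0.05 (adjusted p = 0.13) and -0.10 ± 0.05 (adjusted p = 0.235), and the difference of tTA from DN at 6.1 months was -0.13 ± 0.04 (adjusted p = 0.101).

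Ndufaf5 was lower than in DN at 6.1 months by 0.15 ± 0.05 (adjusted p = 0.0387), with signals of 7.28, 7.32 and 7.44 in rTg4510 and 7.37, 7.46 and 7.66 in DN. Its difference from tTA at that age was -0.10 ± 0.05 (adjusted p = 0.242). Ndufaf3 was the 1 respiratory chain gene called between the control genotypes. At 6.1 months its signals were 8.24, 8.35 and 8.47 in tTA and 8.41, 8.47 and 8.53 in DN, with 7 of 10 tTA mice below every DN mouse. It fell by 0.11 ± 0.03 in tTA (adjusted p = 0.0358), and the test called 6.32% of all genes there.

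**Figure D3:**
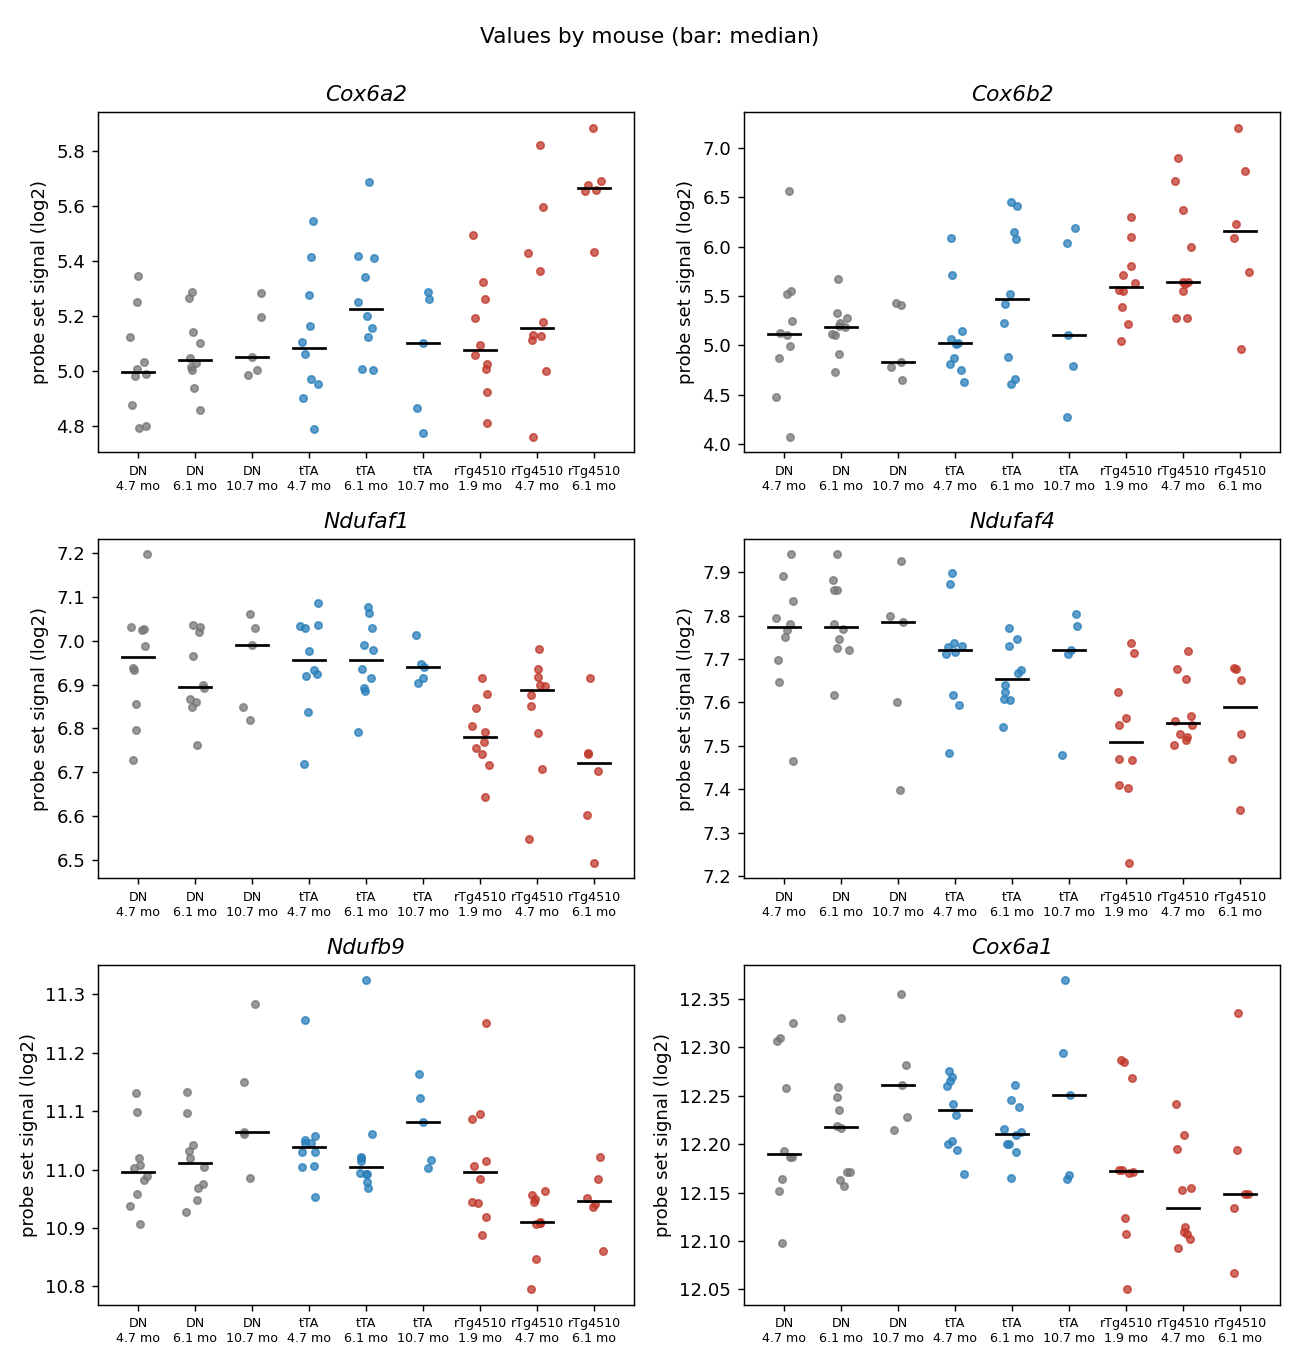
Log2 probe set signal (vertical axes, a different range in each panel) of 6 genes in every mouse of the 9 groups, grey for DN, blue for tTA and red for rTg4510, with the group median as a bar. Cox6a2 reaches 5.43 to 5.88 in the 6 rTg4510 mice of 6.1 months, above all DN mice of that age, Ndufaf1 lies at 6.49 to 6.92 in those mice against 6.79 to 7.08 in tTA, Ndufaf4 at 7.35 to 7.68 against 7.62 to 7.94 in DN, and the common isoform Cox6a1 varies within 12.05 to 12.37.

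Ecsit, Acad9 and Timmdc1 are known partners of Ndufaf1 in assembling the membrane arm. Among 25 measured assembly factors outside the 82 genes, Ecsit and Ttc19 were lower in rTg4510 than in tTA at 4.7 months, Ecsit and Coa7 at 6.1 months, and none was called higher at either age. Over all genes 3.38% were lower at 4.7 months and 8.64% at 6.1 months, so 2 of 25 is near the background at the later age. Ecsit had signals of 7.94, 8.04 and 8.10 in rTg4510 and 8.01, 8.20 and 8.28 in tTA at 4.7 months. At 6.1 months they were 7.84, 7.89 and 7.96 in rTg4510. The highest of these, 7.959, lay just below the lowest tTA mouse, at 7.961, and all were below the DN mice, which began at 8.13. In either direction 3.29% of all genes separated rTg4510 from tTA at that age and 7.14% from DN. Ecsit fell by 0.14 ± 0.03 at 4.7 months (adjusted p = 0.00697) and by 0.28 ± 0.04 at 6.1 months (adjusted p = 5.3e-05). Acad9 differed by -0.06 ± 0.04 and 0.06 ± 0.05 and Timmdc1 by 0.05 ± 0.06 and -0.07 ± 0.08. Neither was called, and both are named as partners of Ndufaf1 after their values were seen. Coa7, an assembly factor of complex IV, fell by 0.39 ± 0.09 at 6.1 months (adjusted p = 0.00224). Ttc19, which acts on complex III, fell by 0.22 ± 0.05 at 4.7 months (adjusted p = 0.00825), and its difference was -0.15 ± 0.07 at 6.1 months (adjusted p = 0.146). The median over the 25 factors was -0.01 at 4.7 months and 0.00 at 6.1 months.

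Complexes II and III showed no call in any of the comparisons between genotypes. The 4 genes of complex II, succinate dehydrogenase, which also serves the citric acid cycle, differed between rTg4510 and tTA by 0.01 to 0.03 at 4.7 months and by -0.03 to 0.07 at 6.1 months. Sdhb, its brightest gene and the iron-sulfur subunit, differed by 0.03 ± 0.03 and 0.02 ± 0.03. The widest at 6.1 months was Sdhc, a membrane anchor, at 0.07 ± 0.04 (adjusted p = 0.26). In complex III, the cytochrome bc1 complex, differences ran from -0.06 to 0.04 and from -0.07 to 0.04. Uqcr11, the brightest, differed by -0.03 ± 0.04 and 0.00 ± 0.04, and the core proteins Uqcrc2 and Uqcrc1 gave -0.06 ± 0.04 at 4.7 months and -0.07 ± 0.04 at 6.1 months.

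The widest differences in the chain were in complex IV, in isoforms with low signal. Its common subunits differed little. Cox6a1, the brightest of the 82 genes, had signals of 12.17, 12.24 and 12.28 in tTA and 12.09, 12.13 and 12.24 in rTg4510 at 4.7 months, a difference of -0.08 ± 0.03 (adjusted p = 0.113), and -0.04 ± 0.04 at 6.1 months. Cox4i1, Cox6b1 and Cox7a2 differed by -0.07 ± 0.03, -0.06 ± 0.05 and 0.01 ± 0.03 at 4.7 months. At 6.1 months they differed by 0.00 ± 0.03, -0.01 ± 0.03 and -0.01 ± 0.03.

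Cox8a, the common form of subunit VIII, was called at 4.7 months. Its signals were 10.94, 11.01 and 11.27 in tTA and 10.63, 10.92 and 10.99 in rTg4510, and 6 of 10 rTg4510 mice were below every tTA mouse. It fell by 0.13 ± 0.04 (adjusted p = 0.0391). Its second probe set gave -0.12 ± 0.04 (adjusted p = 0.072), which did not pass. Without the highest tTA mouse, number 69, or the lowest rTg4510 mouse, number 37, the call was lost. At 6.1 months the difference was -0.03 ± 0.03 (adjusted p = 0.59).

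Cox6a2, the form of subunit VIa known from heart and skeletal muscle, rose at 6.1 months. Its lowest, median and highest signals were 5.00, 5.23 and 5.69 in tTA, 4.86, 5.04 and 5.29 in DN and 5.43, 5.67 and 5.88 in rTg4510. All 6 rTg4510 mice were above every DN mouse, which 7.14% of all genes showed in either direction, and 2 of 6 were above every tTA mouse. It was higher than in tTA by 0.40 ± 0.08, or 1.32-fold (adjusted p = 0.00138), and higher than in DN by 0.60 ± 0.08, or 1.51-fold (adjusted p = 6.07e-06). At 4.7 months the signals were 4.76, 5.16 and 5.82 in rTg4510 and 4.79, 5.08 and 5.54 in tTA, with a difference of 0.13 ± 0.10 (adjusted p = 0.522).

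Cox6a2 was also the 1 respiratory chain gene called with age in rTg4510, where 2.87% of all genes were. Its group means were 5.12 ± 0.20 (SD, n = 10) at 1.9 months, 5.25 ± 0.31 (n = 10) at 4.7 months and 5.66 ± 0.14 (n = 6) at 6.1 months, and the adjusted p over the 3 ages was 0.0185. Without mouse 11 of the 6.1-month group it was 0.0655. The difference of the tau effect between 4.7 and 6.1 months was 0.27 ± 0.16 and was not called (adjusted p = 0.761). Its mean signal of 5.17 lies below the median of 5.87 over all genes, and it has 1 probe set, so no second one bears on its rise.

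Cox6b2, the form of subunit VIb known from testis, was higher in rTg4510 and varied widely. At 4.7 months its lowest, median and highest signals were 5.27, 5.64 and 6.90 in rTg4510, 4.63, 5.02 and 6.08 in tTA and 4.07, 5.12 and 6.56 in DN. At 6.1 months they were 4.96, 6.15 and 7.20 in rTg4510, 4.60, 5.47 and 6.46 in tTA and 4.73, 5.19 and 5.67 in DN. The groups overlapped at both ages, although 5 of 6 rTg4510 mice were above every DN mouse at 6.1 months. It was higher than in tTA by 0.78 ± 0.24 at 4.7 months (adjusted p = 0.0371) and by 0.62 ± 0.29 at 6.1 months (adjusted p = 0.172). It was higher than in DN by 0.74 ± 0.24 (adjusted p = 0.033) and by 0.99 ± 0.29 (adjusted p = 0.0154).

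Markers of the choroid plexus, the tissue that makes cerebrospinal fluid and can be carried along in a hippocampal dissection, moved with Cox6b2. Their score, the mean signal of 9 measured markers of 11 listed, ranged from 4.23 to 8.40 in rTg4510, from 4.21 to 8.01 in tTA and from 4.18 to 8.25 in DN at 4.7 months. At 6.1 months it ranged from 4.61 to 8.55, from 4.23 to 8.29 and from 4.52 to 7.75. None of the 9 markers was called between rTg4510 and tTA, and their median difference was 1.53 at 4.7 months and 0.79 at 6.1 months. The scores of the 76 mice fall into a low cluster of 29 mice, up to 5.14, and a high one of 47 mice, from 5.80. Cox6b2 had lowest, median and highest signals of 4.07, 4.83 and 5.43 in DN, 4.28, 4.81 and 5.14 in tTA and 4.96, 5.21 and 5.28 in rTg4510 mice of the low cluster. In the high cluster they were 4.87, 5.26 and 6.56 in DN, 5.07, 6.06 and 6.46 in tTA and 5.39, 5.81 and 7.20 in rTg4510. The high cluster held 21 of 26 rTg4510, 12 of 25 tTA and 14 of 25 DN mice, and its Cox6b2 medians were higher in all 3 genotypes. Cox8b, the heart and muscle form of subunit VIII, had medians of 3.95, 3.89 and 3.68 in the low cluster and 5.35, 5.79 and 5.36 in the high one, for DN, tTA and rTg4510. Those of Cox6a2 were 5.01, 5.12 and 5.49 in the low and 5.04, 5.18 and 5.13 in the high cluster.

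Correlations with the score were taken inside a cluster, in the 5 groups with at least 6 mice in one, which gave 15 relations for the 3 genes, chosen after the values were seen. All p-values are from exact two-sided permutation tests, adjusted over the 15. In the high cluster of rTg4510 mice of 4.7 months (n = 8), Cox6b2 gave Pearson's r = 0.895 (exact p = 0.00375, adjusted p = 0.014), Spearman's rho = 0.905 (exact p = 0.00456, adjusted p = 0.0137) and r = 0.86 without the 2 mice farthest from the median score. In tTA mice of 6.1 months (n = 7) it gave r = 0.879 (exact p = 0.022, adjusted p = 0.0472), rho = 0.893 (exact p = 0.0123, adjusted p = 0.0308) and r = 0.714 without those 2 mice. In tTA mice of 4.7 months, in the low cluster (n = 7), r was -0.305 (exact p = 0.526, adjusted p = 0.714) and rho -0.393 (exact p = 0.396, adjusted p = 0.54). In DN mice of 6.1 months, in the high cluster (n = 8), r was 0.664 (exact p = 0.0705, adjusted p = 0.118), rho 0.357 and r 0.0445 without the 2 farthest mice. In rTg4510 mice of 1.9 months (n = 8) r was 0.925 (exact p = 0.00203, adjusted p = 0.0102) and 0.605 without those 2 mice. Cox6b2 passed in 3 of the 5 groups by both tests. Cox8b passed in 4 by r and 3 by rho, with r from 0.8 to 0.989 without the 2 farthest mice in the 4 high-cluster groups and 0.461 in the low cluster. Cox6a2 passed in 0, where its unadjusted p was under 0.05 in 0 as well.

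**Figure D4:**
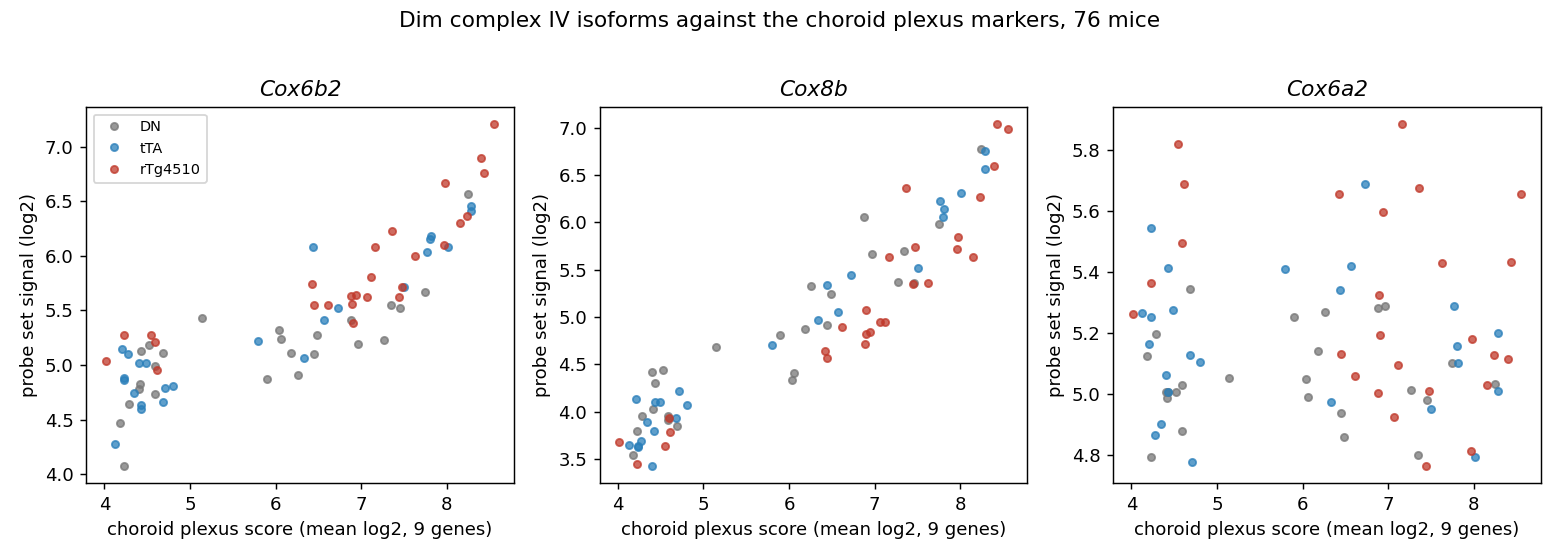
Log2 signal of Cox6b2, Cox8b and Cox6a2 (vertical axes, a different range in each panel) against the choroid plexus score, the mean log2 signal of 9 markers (horizontal axes), for all 76 mice, grey for DN, blue for tTA and red for rTg4510. The scores leave a gap between 5.14 and 5.80, and above it Cox6b2 and Cox8b reach 7.20 and 7.04, while Cox6a2 spans 4.76 to 5.88.

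With the score as a covariate the difference of Cox6b2 from tTA was 0.26 ± 0.14 at 4.7 months (adjusted p = 0.427) and 0.32 ± 0.14 at 6.1 months (adjusted p = 0.143). From DN it was 0.36 ± 0.14 at 4.7 months (adjusted p = 0.0917) and 0.66 ± 0.14 at 6.1 months (adjusted p = 0.000989). Cox8b differed from tTA by 0.68 ± 0.41 and 0.58 ± 0.48 without the covariate and by -0.36 ± 0.13 (adjusted p = 0.158) and 0.04 ± 0.15 (adjusted p = 0.929) with it. Cox6a2 differed from tTA by 0.41 ± 0.09 at 6.1 months with the covariate (adjusted p = 0.00234), and Ndufaf1 by -0.24 ± 0.06 (adjusted p = 0.00415). The other dim isoforms showed no call. Cox4i2 differed from tTA by 0.01 ± 0.05 and 0.00 ± 0.07, Cox7a1 by 0.10 ± 0.09 and -0.16 ± 0.09, and Cox8c by -0.03 ± 0.05 and -0.09 ± 0.07. Ndufa4l2 is not analysed here.

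In complex V, the 17 genes of the ATP synthase, none was called between any genotypes. Differences between rTg4510 and tTA ran from -0.05 to 0.06 at 4.7 months and from -0.01 to 0.08 at 6.1 months, with 10 and 13 of 17 above 0. Atp5g3, which encodes the membrane ring and was the brightest of these, differed by -0.04 ± 0.03 and -0.01 ± 0.03. Atp5o and Atp5e had the widest differences, 0.06 ± 0.03 at 4.7 months and 0.08 ± 0.05 at 6.1 months.

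Against DN, 2 genes were called at 4.7 months, Cox6b2 and Ndufaf4, and 5 at 6.1 months, namely Cox6a2, Cox6b2, Ndufaf1, Ndufaf4 and Ndufaf5. These comparisons share their rTg4510 mice with those against tTA. Within 1.2-fold lay the intervals of 78 and 75 genes, against 73.9% and 62.6% of all genes. Between tTA and DN no gene of the 82 was called by limma at 4.7 months, where 4.67% of all genes were and 0 of the 82 had an unadjusted p under 0.05. At 6.1 months 1 was called, Ndufaf3, and 10 had an unadjusted p under 0.05, against 2124 of all 11807 genes. All 6 core subunits of complex I lay below 0 there without a call, as did 54.9% of the 82 genes and 48.7% of all genes. The mean of the 6 ranged from 10.25 to 10.45 in tTA and from 10.32 to 10.40 in DN mice, so the groups overlapped. At 10.7 months none was called, where 1.1% of all genes were, and again 0 had an unadjusted p under 0.05. Atp5g1 and Atp5g2, which encode the same ring subunit as Atp5g3, separated the 5 tTA from the 5 DN mice without overlap there, Atp5g1 higher by 0.10 ± 0.05 and Atp5g2 by -0.11 ± 0.06, where 3.02% of all genes separated. Against DN at 4.7 months no gene of the 82 separated, and 1.31% of all genes did.

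With age no gene was called in tTA or in DN by limma, where 0.296% and 0.364% of all genes were called. At an unadjusted p under 0.05 there were 1 of the 82 in tTA, against 1302 of all 11807 genes, and 11 in DN, against 1500, a share near that of all genes. In DN 66 of the 82 genes lay above 0 from 4.7 to 10.7 months, with a median difference of 0.05 against 0.00 over all genes, and in tTA 60 did, with a median of 0.02. In rTg4510, from 1.9 to 6.1 months, 62 lay below 0, with a median of -0.02. Below 0 lay 19.5%, 26.8% and 75.6% of the 82 genes in DN, tTA and rTg4510, against 50.9%, 50% and 53% of all genes. The 82 genes were read in the same mice, so these signs are not independent. Their mean ranged from 9.74 to 9.88 in DN mice of 4.7 months and from 9.79 to 9.89 at 10.7 months. In rTg4510 it ranged from 9.74 to 9.91 at 1.9 months and from 9.77 to 9.90 at 6.1 months. The largest differences in DN with an unadjusted p under 0.05 were Ndufa5 at 0.15 and Ndufc1 at 0.14, both short of the adjusted threshold. The difference of the tau effect between 4.7 and 6.1 months was called for none of the 82 genes and for 0% of all genes by limma, and 0 of the 82 had an unadjusted p under 0.05.

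A second probe set was present for 37 of the 82 genes. Its difference had the same sign as the one used in 28 of 37 at 4.7 months and 23 of 37 at 6.1 months for rTg4510 against tTA. Against DN at 6.1 months the second probe sets of Ndufa5 (-0.13 ± 0.04, adjusted p = 0.0131) and Ndufs4 (-0.22 ± 0.07, adjusted p = 0.0278) were called where the first, at -0.16 ± 0.06 and -0.03 ± 0.04, were not. A further, dim probe set of Ndufa12 was called against tTA at 4.7 months (-0.19 ± 0.05, adjusted p = 0.0148), where the first gave 0.04 ± 0.03.

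Lists of genes around the chain were compared between rTg4510 and tTA, where 9.1% of all genes were called at 4.7 months and 14.9% at 6.1 months. These lists are short, and with 1 to 3 calls each, several of them lie near those shares. In the citric acid cycle 1 of 15 was called at each age, Suclg2, a subunit of succinyl-CoA synthetase, higher by 0.29 ± 0.08 (adjusted p = 0.0258) and 0.48 ± 0.09 (adjusted p = 0.00038). At 6.1 months its signals were 5.91, 6.17 and 6.57 in rTg4510 and 5.57, 5.68 and 5.89 in tTA. These do not overlap, as was so for 3.29% of all genes in either direction. Of 9 electron carriers none was called at either age. Of 15 glycolytic genes none was called at 4.7 months and 3 at 6.1 months, with Pfkl, a phosphofructokinase, lower by 0.24 ± 0.05 (adjusted p = 0.00111), Ldha, lactate dehydrogenase A, lower by 0.11 ± 0.03 (adjusted p = 0.0284) and Aldoc, an aldolase, higher by 0.14 ± 0.03 (adjusted p = 0.00683). Gpx1, a glutathione peroxidase, was the 1 of 7 oxidant defence genes called, higher by 0.24 ± 0.05 and 0.19 ± 0.06 (adjusted p = 0.00464 and 0.0276). Ckmt1, mitochondrial creatine kinase, was lower by 0.19 ± 0.04 at 6.1 months (adjusted p = 0.00133), 1 of 9 transport genes.

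Among 12 regulators of mitochondrial gene expression, which include Nrf1, Gabpa and Yy1, Tfb2m was lower at 4.7 months by 0.19 ± 0.05 (adjusted p = 0.0231) and none was called at 6.1 months by limma. Their differences lay below 0 for 11 of 12 at each age, with medians of -0.09 and -0.10, against -0.01 and -0.02 over all genes. Of 70 genes of the mitochondrial ribosome 1 was called at 4.7 months, Mrpl17 (0.13 ± 0.04), and 2 at 6.1 months, Mrps6 (0.46 ± 0.09) and Mrpl19 (-0.12 ± 0.04). Of 20 protein import genes Tomm70a was called at 6.1 months (-0.17 ± 0.04, adjusted p = 0.0126). None of 6 genes of mitochondrial fusion and fission was called at either age.

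Markers of several cell types moved in the same mice. Of 4 markers of CA1 pyramidal neurons 3 were lower in rTg4510 than in tTA at 4.7 months and 4 at 6.1 months, with median differences of -0.66 and -1.14. Their mean signal ranged from 7.21 to 7.84 in rTg4510 and from 8.48 to 8.77 in tTA at 6.1 months. All 8 measured microglial markers were higher at both ages, with medians of 1.16 and 1.72, and their mean signal ranged from 7.84 to 8.44 in rTg4510 and from 6.60 to 6.86 in tTA at 6.1 months. Of 6 astrocyte markers 3 were higher at 4.7 months and 6 at 6.1 months, with medians of 0.24 and 0.48. Of 9 general neuronal markers 1 and then 3 were lower, with medians of -0.04 and -0.01. In whole hippocampus fewer cells of a type and less RNA per cell cannot be told apart. The part of these cell types in the differences of Cox6a2, Ndufaf1 and Ecsit was not tested.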

How the data were processed

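Total RNA of the hippocampus was amplified, biotin-labelled and hybridised to an Affymetrix mouse array, 1 array per mouse. The deposited values are log2 signals per probe set that the authors made with RMA (robust multi-array average; version not given in the sources used here), which corrects background, equalises the arrays and combines the probes of a set. Equalising the arrays removes any shift shared by all genes. The median signal of an array was 5.24 to 5.39. Of 22716 probe sets 90 controls were left out. Of the rest, 18003 have 1 gene symbol, 287 have several and 4336 are unnamed here. Groups follow the genotype and age in the labels, which give the age of each mouse, and are named by an age near their average. Mouse numbers are unique to a mouse. The lowest median correlation of an array with the others of its group was 0.99 (tTA mouse 21 of 6.1 months, next 0.992), and all arrays were kept.

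Differences were estimated in R 4.3.3 by limma 3.58.1 over all 22626 probe sets (genotypes of an age, or ages of a genotype, in 1 fit), with Benjamini-Hochberg adjustment at 0.05 and no fold threshold. Intervals are 95%. Age was tested over the 3 ages, and its difference is the oldest minus the youngest group. Correlations, motif counts and figures were made in Python 3.11.15, with all permutations enumerated. The code was tested on simulated data. Alternatives were another test, scale, filter, array scaling, probe set rule and choice of samples, a covariate for choroid plexus markers, and the omission of each mouse in turn. Arrays give no depth, and the number of mice limits the precision.

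The 82 genes, the gene lists and the rule for naming genes were chosen with earlier results of these data known. The rule named called genes (up to 12 each way for rTg4510 against tTA, otherwise up to 5), the brightest gene and up to 2 widest uncalled ones in each complex, the tissue isoforms of complex IV with their partners, up to 3 called genes of each related list, and genes whose probe sets disagree. Lists that gave no further value in the text were, at 6.1 months, dentate granule cells (1 of 5 higher and 1 lower), inhibitory interneurons (2 of 6 higher), oligodendrocytes (1 of 5 higher) and vessels (1 of 7 higher).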

Additional observations from a re-analysis of the deposited data

Results flagged for a closer look

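For 11 genes in the 9 groups, 10 of 99 sets of a gene in a group held a mouse that stood apart from the others. Chance marks about 1 in 20 independent sets, but these share mice, and 3 mice account for 7 of the 10. Low values came from rTg4510 mouse 37 of 4.7 months, with 11.03 for Cox6b1 (next 11.57) and 10.63 for Cox8a (next 10.90). High values came from tTA mouse 69 of 4.7 months, with 11.27 for Cox8a (next 11.09) and 11.26 for Ndufb9 (next 11.06). The tTA mouse 21 of 6.1 months had 11.32 for Ndufb9 (next 11.06). One tTA mouse of 10.7 months had 11.70 for Cox6b1 (next 11.62), 8.47 for Ndufaf3 (next 8.37) and 7.48 for Ndufaf4 (next 7.71). The rTg4510 mouse 8 of 6.1 months had 11.76 for Cox6b1 (next 11.65), and 1 DN mouse of 10.7 months had 11.27 for Cox8a (next 11.02).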

How the results depend on the processing

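Among the counts and the called genes recomputed under each alternative, no called difference changed sign. Genes that were not called did: Cox8b against tTA at 4.7 months was 0.68 and, with choroid plexus markers as covariate, -0.36, and the second probe set had the same sign in 28 of 37 genes at 4.7 months and 23 of 37 at 6.1 months. The called differences of Cox6a2, Ndufaf1, Ndufaf4 and Ndufb9 between genotypes stayed past the threshold under every alternative that gave them a value, including each mouse left out in turn. Other calls were lost under some alternatives, not counting single mice left out. Cox6b2 at 4.7 months lost its call in 3 of 11 against tTA and in 4 of 11 against DN. Its call against DN at 6.1 months was kept in all 12. Cox8a lost its call in 4 of 11, Ndufaf5 in 3 of 12 and Ndufaf3 in 2 of 12. Cox6a2, Ndufaf1 and Ndufb9 have 1 probe set each. The alternatives that change the probe set rule kept their signals, so these alternatives do not test those 3 genes. The number of the 82 genes called moved by over 1.5 times as follows. For rTg4510 against tTA it was 1 at 4.7 months with choroid plexus markers as covariate and 1 at 6.1 months with brighter probe sets alone, which drops Cox6a2. Against DN it was 4 at 4.7 months with centred arrays and 1 with the compared groups alone, and 8 at 6.1 months with a gene's probe sets averaged. For tTA against DN at 6.1 months it was 0 with centred arrays and 0 without the mice numbered 75 and above. For age in rTg4510 it was 0 with brighter probe sets and 2 with all 9 groups in the fit, and for age in DN 1 with a plain linear model, 2 on the linear scale and 1 with brighter probe sets. The cause was not tested.

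With each mouse left out, the counts ran from 1 to 3 and from 2 to 3 for rTg4510 against tTA, from 1 to 3 and from 3 to 7 against DN, and from 0 to 1 for tTA against DN at 6.1 months and for age in rTg4510, and stayed at 0 elsewhere. The call of Cox6b2 against tTA was lost in 11 of 30 such fits, and against DN in 7 of 30 and in 2 of 26 (without rTg4510 mouse 10 or 7). Without tTA mouse 21 the counts at 6.1 months were 3 against tTA and 7 for rTg4510 against DN. Cox8a lost its call in 9 of 30, Ndufaf5 in 8 of 26 and Ndufaf3 in 11 of 26. The authors describe the controls as littermates, but the labels give no litter and mouse numbers are not shared between groups. No paired analysis, and none by litter, was therefore possible.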
